A study of Mus musculus with 4 samples.

Results

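FoxO1 signal over the genome of isoproterenol-treated mouse hearts was set against that of vehicle and sham hearts, in all 16126 regions of the deposited FoxO1 chromatin immunoprecipitation sequencing (ChIP-seq) table, in which DNA bound by an antibody to FoxO1 was sequenced. The members are every region of the table, and 2 of the 3 FoxO1 libraries were compared. The Iso library came from wild-type male C57BL/6 mice aged 12 weeks that received subcutaneous isoproterenol at 3 mg/kg per day for 7 days. TAC, used to rank regions, came from mice of the same strain, sex and age that had transverse aortic constriction for 7 days. Veh/Sham, the normal heart, came from such mice given daily subcutaneous vehicle together with a sham operation for 7 days; no sham operation is named for Iso mice. Each library was made from a pool of 3 hearts, so there was 1 library per condition, no spread between replicates and no test. Every difference below is therefore a difference between 2 libraries. A pooled heart mixes cell types, and fewer cells of a type cannot be told apart from less signal per cell.

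FoxO1 is a forkhead transcription factor that binds DNA in the nucleus and switches on genes of stress resistance, glucose production, protein breakdown and cell cycle arrest. Insulin and growth factors act through Akt, which phosphorylates FoxO1 and moves it to the cytoplasm. Isoproterenol activates beta-adrenergic receptors, raises cyclic AMP, and given over days enlarges the rodent heart. A CpG island is a stretch of DNA rich in unmethylated CG pairs, found at the promoters of most widely expressed genes.

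The promoter sequences of 9 genes show the base composition along which the Iso to Veh/Sham ratio was ordered. They are RefSeq windows of GRCm38.p6, from 250 bases before to 50 bases after the start site and printed on the gene's strand, with CG pairs in capitals. Smc2, Ppcdc and Aaas are from promoters with ratios among the highest of regions that the authors called in both libraries, and Zfr, Zfp1, Sptan1 and Pan3 are among the lowest. Sesn3, a FoxO target, and Foxo1 itself are shown for their own values.
Smc2: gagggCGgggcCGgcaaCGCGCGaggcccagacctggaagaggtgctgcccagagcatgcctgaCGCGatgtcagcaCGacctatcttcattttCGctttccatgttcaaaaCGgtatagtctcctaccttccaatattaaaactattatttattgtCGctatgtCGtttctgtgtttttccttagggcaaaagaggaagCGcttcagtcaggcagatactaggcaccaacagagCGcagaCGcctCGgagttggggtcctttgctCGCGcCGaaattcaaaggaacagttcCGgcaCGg
Ppcdc: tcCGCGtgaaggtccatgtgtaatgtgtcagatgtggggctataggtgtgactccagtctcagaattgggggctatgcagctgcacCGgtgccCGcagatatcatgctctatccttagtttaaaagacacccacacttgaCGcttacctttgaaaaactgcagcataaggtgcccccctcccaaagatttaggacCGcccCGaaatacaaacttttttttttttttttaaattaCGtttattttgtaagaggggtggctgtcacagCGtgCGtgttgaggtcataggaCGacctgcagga
Aaas: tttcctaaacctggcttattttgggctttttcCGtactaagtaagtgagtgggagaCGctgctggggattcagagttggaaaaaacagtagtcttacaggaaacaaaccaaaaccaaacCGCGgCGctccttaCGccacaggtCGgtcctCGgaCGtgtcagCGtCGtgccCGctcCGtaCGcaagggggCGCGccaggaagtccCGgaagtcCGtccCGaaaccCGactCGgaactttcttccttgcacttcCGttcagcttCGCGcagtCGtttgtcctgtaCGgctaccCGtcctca
Sesn3: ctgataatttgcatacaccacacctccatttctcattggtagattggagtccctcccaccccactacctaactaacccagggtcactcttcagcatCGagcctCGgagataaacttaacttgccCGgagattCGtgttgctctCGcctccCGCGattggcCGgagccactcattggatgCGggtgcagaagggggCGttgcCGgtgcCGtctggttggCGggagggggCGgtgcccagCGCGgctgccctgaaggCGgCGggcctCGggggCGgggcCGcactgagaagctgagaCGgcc
Foxo1: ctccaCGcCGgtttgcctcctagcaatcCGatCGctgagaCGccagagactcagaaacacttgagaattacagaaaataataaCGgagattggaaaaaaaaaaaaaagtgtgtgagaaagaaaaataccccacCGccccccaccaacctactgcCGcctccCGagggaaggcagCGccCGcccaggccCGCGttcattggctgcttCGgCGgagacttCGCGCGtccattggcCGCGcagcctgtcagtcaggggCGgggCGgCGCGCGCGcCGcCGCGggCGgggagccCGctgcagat
Zfr: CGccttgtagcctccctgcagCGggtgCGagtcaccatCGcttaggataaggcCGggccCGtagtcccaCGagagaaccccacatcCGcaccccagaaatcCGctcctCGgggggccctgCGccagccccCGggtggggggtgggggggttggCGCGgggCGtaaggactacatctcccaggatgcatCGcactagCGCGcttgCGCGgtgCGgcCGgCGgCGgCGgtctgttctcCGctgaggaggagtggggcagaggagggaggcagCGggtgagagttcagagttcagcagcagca
Zfp1: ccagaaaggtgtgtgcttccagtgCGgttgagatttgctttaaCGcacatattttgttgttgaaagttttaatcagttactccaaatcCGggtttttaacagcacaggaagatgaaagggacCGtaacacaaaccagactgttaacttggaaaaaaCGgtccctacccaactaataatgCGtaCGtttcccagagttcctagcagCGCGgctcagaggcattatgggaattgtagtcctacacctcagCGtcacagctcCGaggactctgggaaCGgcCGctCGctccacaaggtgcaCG
Sptan1: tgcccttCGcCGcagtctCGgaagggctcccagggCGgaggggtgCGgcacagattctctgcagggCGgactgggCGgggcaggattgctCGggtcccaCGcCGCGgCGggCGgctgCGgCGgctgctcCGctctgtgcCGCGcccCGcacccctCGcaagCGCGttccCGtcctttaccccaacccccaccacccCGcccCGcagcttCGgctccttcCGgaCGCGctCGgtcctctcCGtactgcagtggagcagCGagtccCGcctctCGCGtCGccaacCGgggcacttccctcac
Pan3: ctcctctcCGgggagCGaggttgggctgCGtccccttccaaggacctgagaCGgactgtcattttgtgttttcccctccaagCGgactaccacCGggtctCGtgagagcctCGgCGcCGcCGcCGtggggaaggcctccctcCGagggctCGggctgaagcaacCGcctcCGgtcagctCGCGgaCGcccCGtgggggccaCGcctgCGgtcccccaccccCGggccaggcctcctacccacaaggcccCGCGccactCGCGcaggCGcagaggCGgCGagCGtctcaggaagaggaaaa
The Smc2 window (chr4:52438971-52439270, plus strand) held 52.7% G and C, Ppcdc (chr9:57439687-57439986, minus strand) 47.3% and Aaas (chr15:102350710-102351009, minus strand) 55.7%. By contrast Zfr (chr15:12117601-12117900, plus strand) held 69.0%, Sptan1 (chr2:29965310-29965609, plus strand) 73.3% and Pan3 (chr5:147429906-147430205, plus strand) 70.7%. Zfp1 (chr8:111643193-111643492, plus strand) was an exception among the low ones, with 48.3%. Sesn3 (chr9:14276051-14276350, plus strand) held 62.7% and Foxo1 (chr3:52268087-52268386, plus strand) 61.3%.

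Signal per region is the mean coverage over the region as the authors deposited it. Its median over all regions was 11 in Iso, 13.96 in TAC and 8.71 in Veh/Sham. Median peak depth, the highest number of overlapping fragments in a region, was 16 in Iso, 19 in TAC and 12 in Veh/Sham. The sources used here do not state how the libraries were scaled, so shared shifts are kept apart from differences between regions. Peak depths summed over all regions were 312197 in Iso and 245382 in Veh/Sham, a ratio of 1.27, and peak ratios given below for single regions are not corrected for it. Defining heart muscle genes were mostly without a region, which limits the check of the labelled tissue: 2 of 11 cardiomyocyte markers had one, Tnni3 and Mb, while Myh6, Actc1, Tnnt2, Ttn, Ryr2, Pln, Myl2, Myl3 and Nppa had none. Endothelial markers had a region in 9 of 10 cases, and their summed signal was 106 in Iso, 124 in TAC and 85.7 in Veh/Sham. Leukocyte markers had a region in 2 of 10 cases, Cd68 and Igkc, with sums of 29.1 in Iso, 163 in TAC and 19.4 in Veh/Sham. Most of the TAC sum was the Igkc region, which read 134 in TAC, 12.8 in Iso and 3.94 in Veh/Sham. Fibroblast markers had 3 of 10, with 35.3 in Iso, 23.4 in TAC and 24.3 in Veh/Sham. Smooth muscle markers had 2 of 8, with 12.2 in Iso, 18.5 in TAC and 18.1 in Veh/Sham. Some marker regions lay far from the start site, such as Ddr2 at 119561 bp, Notch3 at 45868 bp and Cnn1 at 17819 bp. The sums are not corrected for shifts shared by all regions of a library. The part of cell makeup in the results was not tested.

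The ratio used throughout is the log2 of Iso plus 1 over Veh/Sham plus 1, and its median of 0.30 over all regions (1.23-fold) was subtracted to give the centred log2 ratio. Centred values spread from -1.07 at the 5th percentile to 1.16 at the 95th, and from -0.39 to 0.42 between the quartiles. A region counts as higher or lower in Iso past 1.5-fold relative to the median, a rule of size. By it 2876 regions (17.8%) were higher, 2596 (16.1%) were lower and 10654 lay between. The values on either side of the limits were 0.585 and 0.5847 above, and -0.5851 and -0.5848 below. Ratios given in brackets below are centred log2 ratios of mean signal. Without centring, 69.4% of regions had a ratio above 0.

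Regions of CpG islands were low in Iso relative to the rest, and regions without an island were high. The 8727 regions with a CpG island had a median centred log2 ratio of -0.15, with 735 higher (8.42%) and 1816 lower (20.8%). Among the 7399 regions without an island the median was 0.23, with 2141 higher (28.9%) and 780 lower (10.5%). Median signal with an island was 10.7 in Iso and 9.59 in Veh/Sham; without one it was 11.4 in Iso and 7.56 in Veh/Sham. In raw signal, then, both kinds were higher in Iso, by a median log2 ratio of 0.14 with an island and 0.53 without. The TAC to Veh/Sham ratio, which shares the Veh/Sham library, had centred medians of -0.03 with an island and 0.04 without. Island regions were longer, with a median of 489 bp against 340 bp, and they had the lower median in each quartile bin of region length, from -0.19 against 0.27 among the shortest to -0.16 against 0.09 among the longest.

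Splitting by place as well as by island kept this order. Promoters, here regions within 1000 bp of a start site, had a median of 0.09 where they lacked an island (1161 regions) but -0.12 where an island promoter was shared by several genes (1285 regions). Island promoters of one gene had medians of -0.16 where broad (3138 regions of at least 485 bp) and -0.15 where narrow (3118 regions). Islands outside promoters had -0.17 (1186 regions), close to island promoters and away from other regions outside promoters. Among regions without an island, the median was 0.16 in gene bodies near the start, 0.29 in distal gene bodies, 0.21 in gene flanks and 0.30 away from any gene. The share of higher regions was largest in the last class and in distal gene bodies, at 32.0% in both (566 of 1769 and 749 of 2342), against 17.8% of all regions. It was smallest in broad island promoters, where 3.92% were higher and 15.2% lower, while narrow ones held the largest share of lower regions, 27.1%. The direction in narrow island promoters depended on which regions were kept: with those called in both libraries their median was 0.11.

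**Figure D1:**
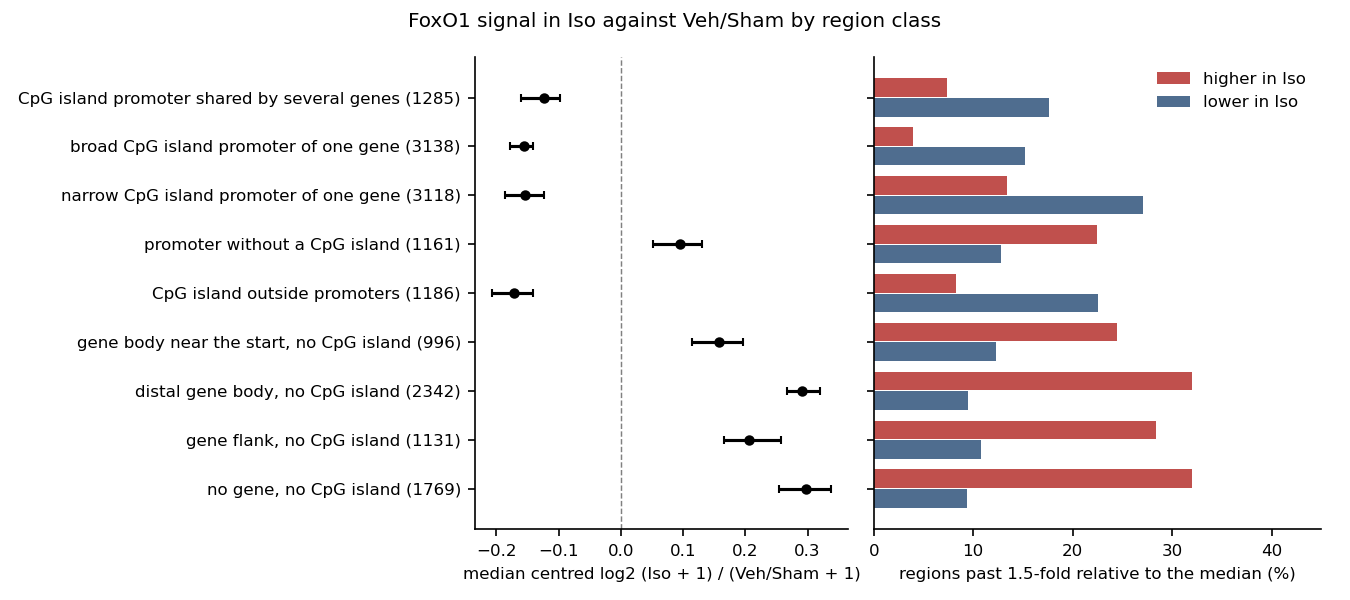
Median centred log2 ratio of Iso over Veh/Sham per region class (left, bars are 95% order-statistic intervals over regions, which do not cover the spread between hearts) and the percent of regions past 1.5-fold higher or lower relative to the median (right); region counts are in brackets. The 4 classes with a CpG island lie below 0, at -0.12 to -0.17, and the 5 classes without one lie above 0, at 0.09 to 0.30.

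The spread of the ratio narrowed with signal while its centre stayed near 0. Regions were put in 10 deciles of TAC signal, a library on neither side of the ratio. In deciles 1, 5 and 10, from weak to strong, the share higher in Iso was 23.8%, 17.9% and 8.06%, and the share lower was 30.6%, 16.5% and 5.33%. Decile medians lay between -0.11 and 0.03. Island regions had the lower median in 10 of 10 deciles. In the lowest decile it was -0.58 with an island and 0.18 without, a gap of 0.76. In the highest decile it was -0.09 and 0.15, a gap of 0.24. Weak island regions were thus the lowest group, with 49.3% of 614 regions lower in Iso and 8.47% higher.

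**Figure D2:**
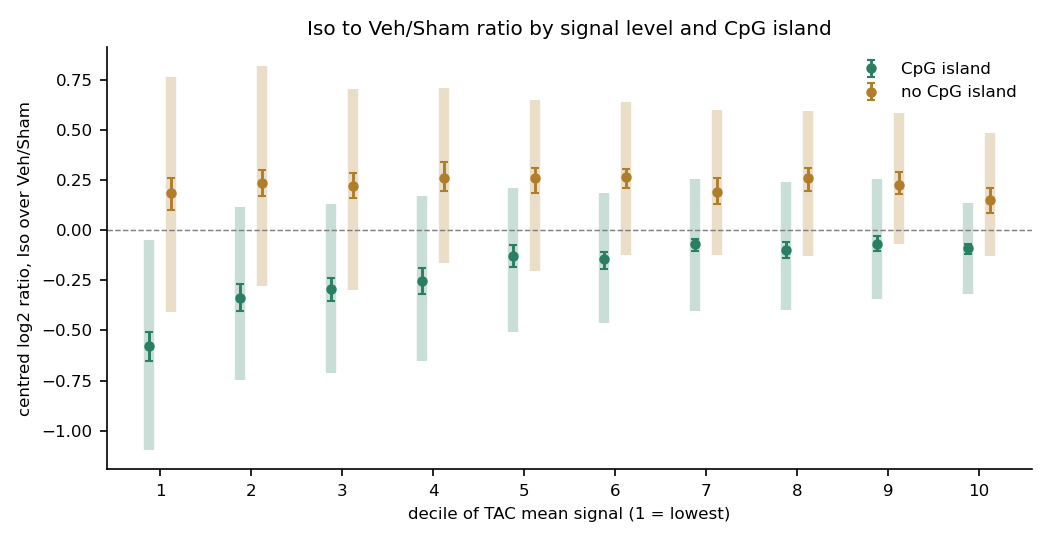
Centred log2 ratio of Iso over Veh/Sham by decile of TAC mean signal, for regions with and without a CpG island; points are medians, thin bars their 95% order-statistic intervals over regions, and broad pale bars the quartiles. Island regions lie below the others in each of the 10 deciles, by 0.76 in decile 1 and 0.24 in decile 10.

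The ratio also differed with distance from the start site, from a median of -0.20 between 250 and 1000 bp to 0.27 beyond 20000 bp. Without an island the median was 0.13 within 250 bp, 0.01 from there to 1000 bp, 0.13 to 5000 bp, 0.23 to 20000 bp and 0.30 beyond. With an island it was -0.11 within 250 bp, -0.25 to 1000 bp, -0.21 to 5000 bp, -0.09 to 20000 bp and -0.30 beyond, without a steady course. In both kinds, regions just off the start site, from 250 to 1000 bp, had lower medians than those on it. With an island, median signal there was 8.56 in Iso and 8.67 in Veh/Sham, and on the start site 11.8 in Iso and 10.3 in Veh/Sham.

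Base composition of the promoter window carried the same order among promoters. RefSeq windows overlapped a region by at least 150 bases in 5006 cases. In quintiles of G and C content, with median contents of 51.7%, 58.3%, 62.3%, 66.7% and 71.7%, the median centred log2 ratio was 0.02, -0.01, -0.05, -0.14 and -0.28. Median Iso signal was 14.9, 13.6, 12.9, 12.4 and 10.6 over these quintiles, whereas median Veh/Sham signal was 11.2, 10.8, 10.4, 10.8 and 10.4. Median Iso signal was thus lower the richer the window, and median Veh/Sham signal varied little. The share higher in Iso was 14.6% in the lowest quintile and 5.08% in the highest, and the share lower 8.48% and 26.3%. Windows with a CpG island had medians of -0.04, -0.03, -0.06, -0.15 and -0.28 among themselves, and those without one 0.14, 0.12, 0.04 and -0.07 in the first 4 quintiles, the fifth holding too few to give a median. Island windows thus had the lower median in each of these 4, where windows without an island numbered 349, 158, 72 and 31. The 95% intervals with and without an island lay apart in the quintiles with 349 and 158. They overlapped in that with 72 (-0.09 to -0.02 with an island, -0.08 to 0.12 without). They also overlapped in that with 31 (-0.17 to -0.11 with an island, -0.32 to 0.36 without). Content was not matched within quintiles: in the poorest its median was 52.3% with an island and 50.3% without. Across the 5006 promoters, which share the same libraries and are not independent, Pearson's r of G and C content with the ratio was -0.23; with the TAC to Veh/Sham ratio it was -0.03. The part of base composition in the other results was not tested, and the input library was not analysed here.

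**Figure D3:**
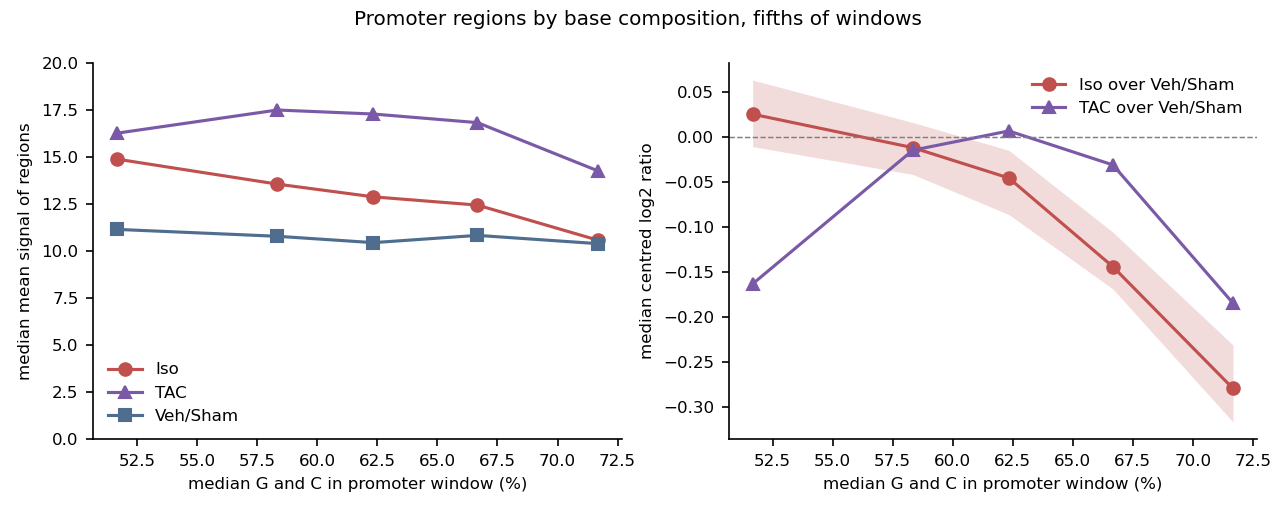
Promoter regions in quintiles of the G and C content of the RefSeq promoter window (x axis, median percent of each quintile): median mean signal per library (left) and median centred log2 ratio (right, with the 95% order-statistic interval over regions shaded for Iso over Veh/Sham). Median signal is 10.6 in Iso and 10.4 in Veh/Sham in the richest quintile, and 14.9 in Iso and 11.2 in Veh/Sham in the poorest; both ratios share the Veh/Sham library.

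The forkhead motif of 7 letters was rare in promoters, and its core of 5 letters was common. The forkhead motif GTAAACA, searched on both strands, was in 4.40% of 455 promoter windows higher in Iso, 2.33% of 687 lower ones and 3.55% of 3864 between, against 3.65% of all 32851 promoters. That is 20 and 16 windows in the higher and lower sets, so the shares rest on few promoters. The core TGTTT, which the longer motif contains, was in 43.7% of higher and 32.3% of lower windows, against 37.1% of all windows with a region and 50.5% of all promoters. Windows with the core averaged 58.4% G and C, and those without it 64.0%. Within quintiles of G and C content, windows with the core had median centred log2 ratios of 0.01, -0.02, -0.09, -0.16 and -0.28. Those without the core had 0.05, 0.01, -0.03, -0.13 and -0.28. The cAMP response element TGACGTCA, bound by CREB proteins downstream of beta-adrenergic receptors, was in 4.84% of higher windows and 5.24% of lower ones, against 4.45% of all windows with a region and 1.79% of all promoters. GGGCGG, the GC box of Sp and Krueppel-like factors, was in 62% of higher and 78.6% of lower windows, against 69.4% of all windows with a region and 35.7% of all promoters. The CCAAT box was in 48.1% of higher and 34.2% of lower windows, against 40.1% of all windows with a region and 37.4% of all promoters. Windows with GGGCGG averaged 64.0% G and C and those without it 57.2%, and a match is a description of letters.

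Higher and lower regions differed in where they lay and in what the authors called. Of the 2876 higher regions 25.6% overlapped a CpG island and 31.2% were promoters. Of the 2596 lower regions 70.0% overlapped an island and 65.4% were promoters. Higher regions had a median signal of 14.4 in Iso and 5.04 in Veh/Sham, and lower regions 5.95 in Iso and 10.3 in Veh/Sham. Of the higher regions 1424 (49.5%) were called in Iso and 285 (9.91%) in Veh/Sham. Of the lower ones 140 (5.39%) were called in Iso and 1667 (64.2%) in Veh/Sham. Of all regions 36.0% were called in Iso and 49.1% in Veh/Sham. Calls and ratios come from the same 2 libraries, so the calls are not separate evidence. Regions called in neither library made up 6763 of the 16126, and 1452 of these were higher and 929 lower. The 4363 regions called in both had a median of 0.04, with 285 higher and 140 lower.

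The highest ratios were taken from regions whose TAC signal was at or above its median, 1 per gene, so that a library outside the ratio set the filter. In 3 of the 12 the Veh/Sham signal is listed at 0: Usp25, a deubiquitinase, read 6.14 in Iso, Ighg2c, an antibody heavy chain gene, 5, and Unkl, a zinc finger gene related to ubiquitin ligases, 4.44. Stk10, a kinase that phosphorylates the cytoskeletal linkers ezrin, radixin and moesin (chr11:32561761-32562027, within the gene), read 21.0 in Iso, 24.0 in TAC and 2.63 in Veh/Sham, with peak depths of 26 in Iso and 4 in Veh/Sham. Its peak ratio was 6.5 with an exact 95% counting interval of 2.26 to 25.6. Phlpp1, a phosphatase that removes an activating phosphate from Akt (chr1:106242156-106242412, within the gene), read 18.1 in Iso, 14.6 in TAC and 2.25 in Veh/Sham, with a peak ratio of 7.67 (exact 95% counting interval 2.32 to 39.9). Another Phlpp1 region, the nearest to its start site, read 44.7 in Iso, 39.1 in TAC and 34.6 in Veh/Sham (centred log2 ratio 0.06). Abhd17a, a depalmitoylating enzyme, read 21.7 in Iso and 3.00 in Veh/Sham. Tnfrsf1b, the TNF receptor 2, read 18.1 in Iso and 2.57 in Veh/Sham. Further high regions were in Schip1, Sept9, Rcbtb2 and Tram2, with centred log2 ratios from 2.09 to 1.97. Of the 12, 10 were outside promoters and 2 overlapped a CpG island. Of all regions, 54.0% were promoters and 54.1% overlapped an island. In TAC deciles 6 to 10, which make up the pool, island regions outnumbered the others in each. They numbered 874 against 751 in decile 6 and 1196 against 417 in decile 10. The 12 regions have low Veh/Sham signal, at most 4.33, and were picked for their ratios.

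At the other end, 11 of the 12 lowest regions were promoters and all 12 had a CpG island, against 54.0% and 54.1% of all regions. These 12 came from the same pool by TAC signal, in which island regions outnumbered the others in each decile. Vhl encodes the recognition subunit of the ubiquitin ligase that degrades hypoxia-inducible factors, and shares its region with Brk1, a subunit of the WAVE actin regulator (chr6:113624100-113624352). The region read 4 in Iso, 19.1 in TAC and 16.0 in Veh/Sham, with a centred log2 ratio of -2.06, and its peak ratio was 0.28 (exact 95% counting interval 0.08 to 0.78). Foxn2, another forkhead gene, read 1 in Iso and 8.88 in Veh/Sham, with peak depths of 1 in Iso and 11 in Veh/Sham and a counting interval of the peak ratio from 0.0021 to 0.625. Parp12, an ADP-ribosyltransferase, read 1 in Iso and 6.78 in Veh/Sham, and Mid1ip1, a regulator of fatty acid synthesis, read 1.4 in Iso and 8 in Veh/Sham. These low regions had little Iso signal, none above 4.18. A promoter shared by Atp5b, the beta subunit of ATP synthase, and Baz2a, a silencer of ribosomal genes, read 2.31 in Iso and 9.13 in Veh/Sham, but its peak depths of 8 in Iso and 13 in Veh/Sham gave a counting interval of 0.22 to 1.6. Ttc19, Rnf138, Ubqln1, Klf16, Pim3 and Lphn1 had centred log2 ratios from -2.11 to -1.70.

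**Figure D4:**
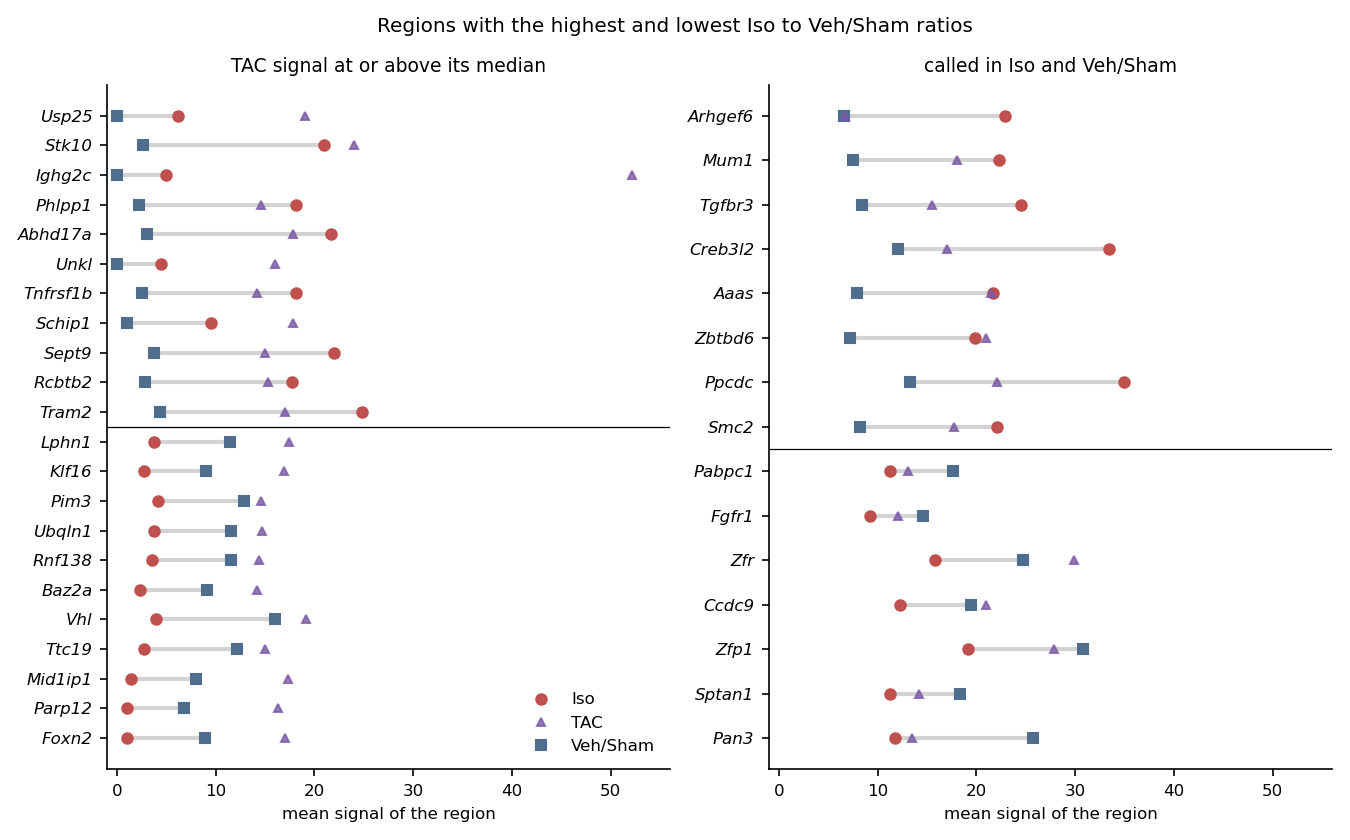
Mean signal of 11 of the 12 highest and 11 of the 12 lowest Iso to Veh/Sham ratios among regions with TAC signal at or above its median (left), and of the 8 highest and 7 of the 8 lowest among regions called in Iso and Veh/Sham (right), with TAC for comparison. Each row is a gene's region; highest ratios are above the line and lowest below it. In the left panel Veh/Sham lies at or below 4.33 in the upper rows, and Iso lies at or below 4.18 in the lower rows.

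Among regions that the authors called in both libraries, the 8 highest centred ratios were 2.04 to 2.56-fold and the 8 lowest 0.388 to 0.533-fold. The highest was at the promoter of Arhgef6, an activator of Rac and Cdc42 (chrX:57338931-57339475), which read 22.9 in Iso, 6.71 in TAC and 6.59 in Veh/Sham. Its centred log2 ratio was 1.36 and its peak ratio 3.18 (exact 95% counting interval 1.58 to 6.95). Mum1, Tgfbr3, a co-receptor of TGF-beta, and Creb3l2, a transcription factor of the endoplasmic reticulum, followed with centred log2 ratios of 1.15, 1.14 and 1.09. Another Creb3l2 region, the nearest to its start site, had 0.55. The Ppcdc region, shared with Scamp5, read 34.9 in Iso, 22.1 in TAC and 13.3 in Veh/Sham; Ppcdc makes a precursor of coenzyme A. Smc2, a condensin subunit, read 22.1 in Iso and 8.21 in Veh/Sham, with 1.03 on the centred log2 scale, and Aaas, a nuclear pore protein, 21.7 in Iso and 7.88 in Veh/Sham. The windows of Smc2, Ppcdc and Aaas printed above are poorer in G and C than those of Pan3, Sptan1 and Zfr. The printed window of Zfp1, also a low region, is poorer than those of Smc2 and Aaas. Zbtbd6 was the other high one (19.9 in Iso, 7.20 in Veh/Sham, centred log2 ratio 1.05). The lowest was Pan3, a subunit of a poly(A) tail nuclease, with 11.7 in Iso, 13.5 in TAC and 25.7 in Veh/Sham, a centred log2 ratio of -1.37 and a peak ratio of 0.42 (exact 95% counting interval 0.23 to 0.72). Sptan1, a spectrin, Zfp1, Ccdc9, Zfr, Fgfr1, a fibroblast growth factor receptor, and Pabpc1, the poly(A) binding protein, had centred log2 ratios from -0.96 to -0.91. Sptan1 was lower in Iso by mean signal, but its peak depths were 33 in Iso and 27 in Veh/Sham. The 8 low regions overlapped a CpG island, and of the 8 high ones 4 did, against 54.1% of all regions. The island share among regions called in both is not given here.

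The 8 highest signals in Iso differed by less than 1.5-fold from Veh/Sham relative to the median. The region of Map3k10, a kinase upstream of JNK, read 70.3 in Iso and 67.3 in Veh/Sham (centred log2 ratio -0.24). Btrc, the F-box protein that marks beta-catenin and IkB for degradation, read 63.3 in Iso and 39.5 in Veh/Sham (0.37), and Tial1, an RNA-binding protein of stress granules, 58.8 in Iso and 54.9 in Veh/Sham (-0.20). A region of chromosome X with no gene read 68.0 in Iso and 40.6 in Veh/Sham (0.43). The other 4 were Ints9, Rnf44, Abcb8 and a region of chromosome 5 without a gene, with centred log2 ratios from -0.39 to 0.11.

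Genes were summarised by the region nearest their start site, which was available for 11718 genes. Their median centred log2 ratio was -0.08, with 1382 genes (11.8%) higher and 1957 (16.7%) lower, which is the background for the family counts that follow. Of 41 families with at least 20 genes, 34 had a median below 0 and 7 above, in a range from -0.30 to 0.22. The families hold from 55.3% to 98.5% of genes with an island region.

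**Figure D5:**
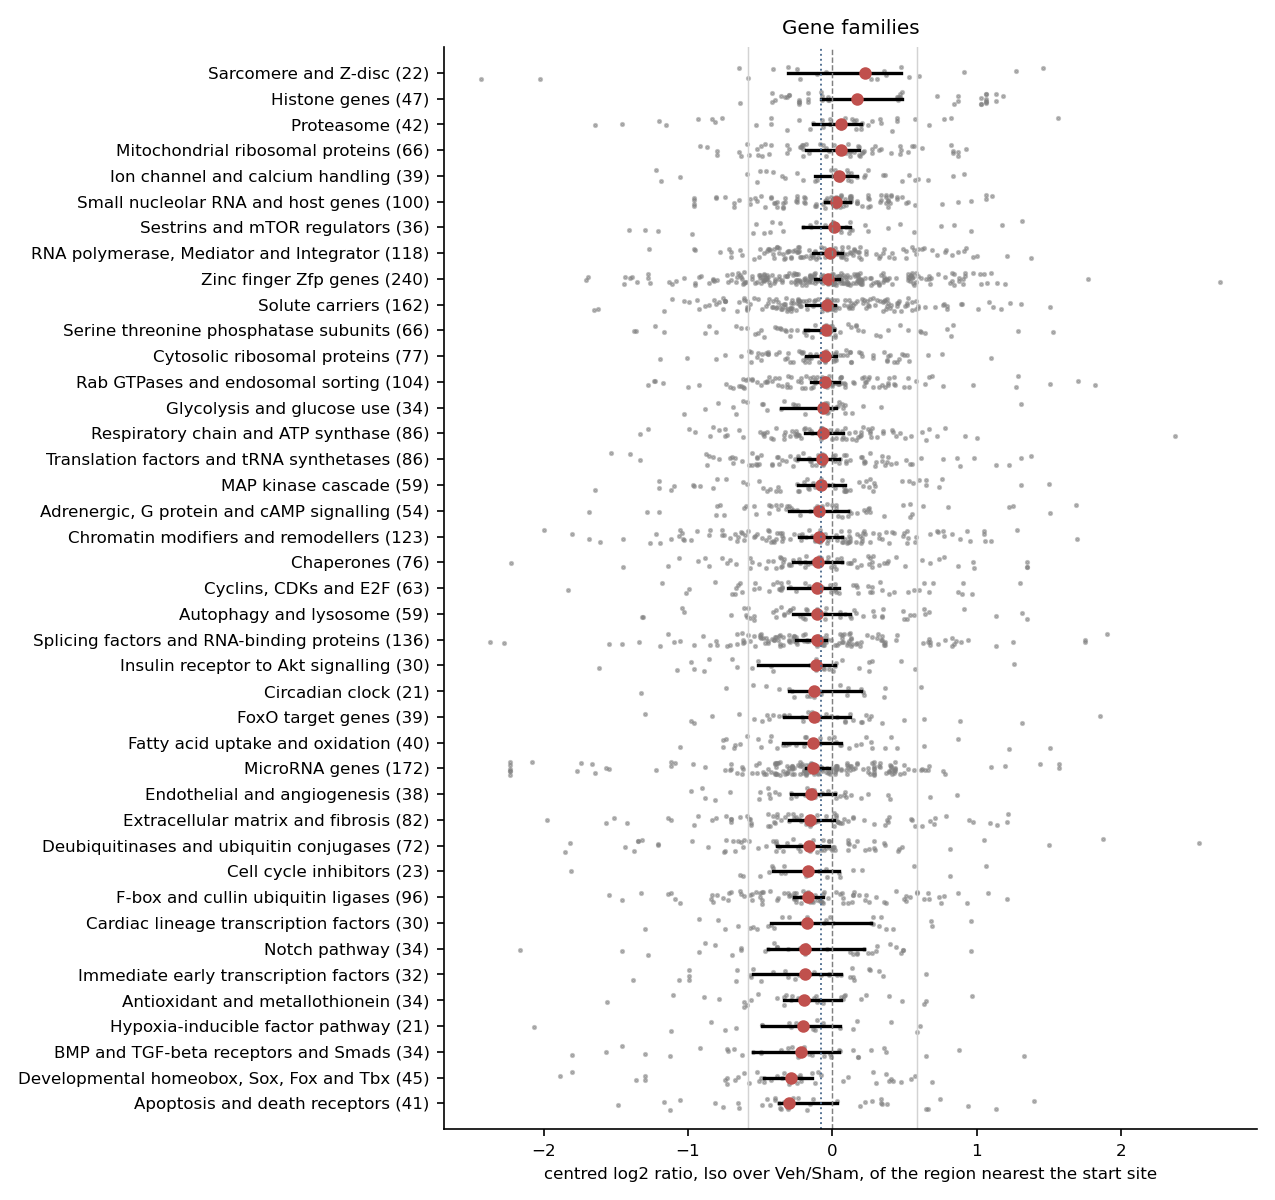
Centred log2 ratio of Iso over Veh/Sham for the 41 gene families with at least 20 genes (numbers in brackets), by the region nearest each start site; grey points are genes, red points medians and black bars 95% order-statistic intervals over genes. The dotted line is the median of all genes (-0.08) and the grey lines are 1.5-fold. Family medians lie between -0.30 and 0.22, and single genes reach -2.4 and 2.7.

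By mean signal the 4 FoxO genes themselves were below the median, in regions that all overlap a CpG island, a class with a median of -0.15. Counting intervals of their peak ratios all included both 1 and the 1.27-fold ratio of summed peak depths. For Foxo1 the peak depths were 25 in Iso and 19 in Veh/Sham, a ratio of 1.32 (exact 95% counting interval 0.70 to 2.53). Foxo1 (chr3:52267635-52268430, upstream of the gene) read 13.8 in Iso, 19.5 in TAC and 13.8 in Veh/Sham, a centred log2 ratio of -0.30. Foxo3 read 14 in Iso, 17.9 in TAC and 14.4 in Veh/Sham (-0.34) in the region nearest its start, Foxo4 read 7.93 in Iso, 15.5 in TAC and 10.6 in Veh/Sham (-0.67), and Foxo6 7.40 in Iso, 12.7 in TAC and 8.5 in Veh/Sham (-0.48). Over all 12 regions of the 4 genes the median was -0.50, with none higher and 4 lower. Of the 7 Foxo3 regions, that inside the gene at chr10:42250998-42251913 read 28.7 in Iso, 21.2 in TAC and 24.0 in Veh/Sham.

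FoxO target genes were close to the background, with 4 of 39 higher (10.3%) and 5 lower (12.8%), and a median of -0.13. Trib3, a pseudokinase that binds Akt (chr2:152343913-152344111, at the start site), read 13.8 in Iso, 18.3 in TAC and 2.33 in Veh/Sham, a centred log2 ratio of 1.85. Sesn3, a sestrin that restrains mTOR (chr9:14275752-14276287), read 17.5 in Iso, 9.75 in TAC and 5.06 in Veh/Sham, with a peak ratio of 2.70 (exact 95% counting interval 1.27 to 6.25). Sirt1, a deacetylase that acts on FoxO proteins, read 6.56 in Iso, 9.78 in TAC and 2.33 in Veh/Sham (0.88). Ddit4, an inhibitor of mTOR, read 1.86 in Iso and 4.71 in Veh/Sham (-1.30). Irs2, an adaptor of the insulin receptor, read 5.70 in Iso and 9.75 in Veh/Sham (-0.98), and Igf1r, a receptor for IGF1, 4 in Iso and 6.90 in Veh/Sham (-0.96).

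Insulin receptor to Akt genes had 1 of 30 higher (3.33%) and 8 lower (26.7%). Akt2, an Akt kinase, read 17.8 in Iso and 9.25 in Veh/Sham (0.57). Gsk3a, a kinase that Akt inhibits, read 3.62 in Iso and 10.5 in Veh/Sham (-1.62), although its peak depths of 6 in Iso and 13 in Veh/Sham gave a counting interval of 0.14 to 1.30. Sestrins and mTOR regulators had 5 of 36 higher and 4 lower. Mtor read 16.6 in Iso and 6.38 in Veh/Sham (0.96), and Rptor, the subunit that recruits mTOR substrates, 16.2 in Iso and 5.18 in Veh/Sham (1.18). Lamtor5, a part of the lysosomal anchor for mTOR, read 6.22 in Iso and 14.6 in Veh/Sham (-1.41). The intervals on the medians of both lists, -0.51 to 0.02 and -0.20 to 0.12, held the median of all genes. Of the mTOR list, Mtor, Rptor and Sesn3 stood high and Lamtor5, Ddit4 and Rragd low.

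Adrenergic, G protein and cyclic AMP genes had 6 of 54 higher (11.1%) and 9 lower (16.7%), like the background. The table holds no region for Adrb1 or Adrb3. Gnaq, the alpha subunit that couples receptors to phospholipase C (chr19:16134134-16134341), read 15.4 in Iso, 4.86 in TAC and 3.14 in Veh/Sham (1.69). Prkar2a, a regulatory subunit of protein kinase A, had 6.00 in Iso and 1 in Veh/Sham, with peak depths of 8 in Iso and 1 in Veh/Sham (counting interval of the ratio 1.07 to 355), and shared the region with Slc25a20, the carnitine carrier. Akap13, an anchor of protein kinase A, read 7.42 in Iso and 15.7 in Veh/Sham (-1.28). Crebbp, the coactivator of CREB, read 2.73 in Iso and 8.75 in Veh/Sham (-1.68), and Adcy9, an adenylyl cyclase, 4.63 in Iso and 9.50 in Veh/Sham (-1.20). Calcium handling and ion channels had 4 of 39 higher and 4 lower, with Mcu, the mitochondrial calcium uniporter, highest (15.0 in Iso, 5.91 in Veh/Sham, centred log2 ratio 0.91). Calcineurin and NFAT genes had 4 of 18 higher and 5 lower. Nfatc3 read 18.9 in Iso and 7.13 in Veh/Sham (0.99) and Hdac5, a repressor of hypertrophic genes, 21.4 in Iso and 10 in Veh/Sham (0.73), whereas Nfat5 read 19.3 in Iso and 25.3 in Veh/Sham (-0.67). MAP kinase genes had 7 of 59 higher and 13 lower, with Map2k5, the kinase that activates Erk5, lowest (2.80 in Iso, 8.67 in Veh/Sham, centred log2 ratio -1.65).

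Sarcomere and Z-disc genes had the highest family median, 0.22, but with 4 of 22 higher and 4 lower. Des, desmin, read 6.78 in Iso and 1.63 in Veh/Sham, with peak depths of 10 in Iso and 3 in Veh/Sham, whose ratio of 3.33 had a counting interval of 0.858 to 18.8. Synpo2 read 10.8 in Iso and 2.50 in Veh/Sham (1.46). Ldb3, a Z-disc protein, read 3.00 in Iso and 12.3 in Veh/Sham (-2.03), and Unc45b, a myosin chaperone, 1 in Iso and 7.78 in Veh/Sham (-2.43), with a peak ratio of 0.1 and a counting interval of 0.0023 to 0.703. The list's median has an interval of -0.31 to 0.48, and over the centred settings of the processing it ranged from -0.11 to 0.28. Of the 22 genes 9 had their region within 1000 bp of the start site. The regions of Synpo2, Ldb3 and Unc45b lay 96433, 22456 and 20500 bp from it. Nppa, Nppb, Myh7, Myh6 and Acta1, the fetal and adult genes used as markers of hypertrophy, had no region. Among the 18 hypertrophy genes with one, 1 was higher, Ctgf (7.44 in Iso, 3.22 in Veh/Sham, centred log2 ratio 0.70), and 3 were lower, Myc, Rcan1 and Tgfb2, between -0.67 and -0.59. Immediate early genes had 1 of 32 higher, Nfkb1, and 7 lower, with Egr3 lowest (3.4 in Iso, 8.33 in Veh/Sham, centred log2 ratio -1.38). Cardiac lineage factors had 3 of 30 higher, Hey1, Tbx20 and Zfpm2, and 5 lower, among them Irx3, Hey2 and Hand2.

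Genes of glycolysis, fatty acid use and the respiratory chain had 14.0% to 20.6% lower, against 16.7% of all genes. Glycolysis and glucose use had 1 of 34 higher, Slc16a3, a lactate exporter (17.6 in Iso, 5.13 in Veh/Sham, centred log2 ratio 1.31), and 7 lower, among them Slc2a4, the insulin-regulated glucose transporter (4.14 in Iso, 6.71 in Veh/Sham, centred log2 ratio -0.88). Fatty acid genes had 4 of 40 higher and 8 lower, of which Hadha and Hadhb, the subunits of the trifunctional protein, share 1 region (8.69 in Iso, 12.3 in Veh/Sham, centred log2 ratio -0.76). Respiratory chain genes had 8 of 86 higher (9.30%) and 12 lower (14.0%). Cox6b1, a subunit of cytochrome c oxidase (chr7:30626197-30626425), stood far above the others, with 19.0 in Iso, 7.14 in TAC and 2.14 in Veh/Sham, a centred log2 ratio of 2.37 and a peak ratio of 5.75 (exact 95% counting interval 1.96 to 22.9). Ndufa4, a respiratory chain subunit, read 10.6 in Iso and 21.8 in Veh/Sham (-1.28). The PPAR, ERR and PGC-1 list had 2 of 18 higher, Med1 and Tfam, the mitochondrial transcription factor (17.2 in Iso, 7.22 in Veh/Sham, centred log2 ratio 0.84), and 5 lower. Antioxidant genes had 3 of 34 higher, Ucp2, Mt1 and Sod2, and 7 lower, with Keap1, the sensor that restrains Nrf2, lowest (4.56 in Iso, 12.3 in Veh/Sham, centred log2 ratio -1.56).

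Protein production and breakdown showed no large shift of the centre. Cytosolic ribosomal protein genes had 3 of 77 higher (3.90%) and 5 lower (6.49%), both under the background shares. Mitochondrial ribosomal protein genes had 7 of 66 higher and 7 lower. Proteasome genes ranged from Psmd2, a regulatory subunit (11 in Iso, 2.30 in Veh/Sham, peak ratio 4.67, counting interval 1.3 to 25.3), to Psmb7, a catalytic subunit (4.43 in Iso, 12.8 in Veh/Sham, centred log2 ratio -1.64). Deubiquitinases and ubiquitin conjugases had 5 of 72 higher (6.94%) and 20 lower (27.8%), with Otud3 lowest (4 in Iso, 13.7 in Veh/Sham, centred log2 ratio -1.85). Autophagy genes had 7 of 59 higher, among them Atg5, needed for autophagosome growth (17.6 in Iso, 4.94 in Veh/Sham, centred log2 ratio 1.35), and Lamp1, a lysosomal membrane protein (16.3 in Iso, 4.67 in Veh/Sham, centred log2 ratio 1.31), and 9 lower, among them Wipi2 (6.13 in Iso, 13.4 in Veh/Sham, centred log2 ratio -1.32). Hspd1 and Hspe1, the mitochondrial chaperonins, share 1 promoter region, which read 21.5 in Iso, 21.0 in TAC and 6.20 in Veh/Sham (1.34). Dnaja2, a co-chaperone, read 1 in Iso and 6.60 in Veh/Sham (-2.22), with a peak ratio of 0.0909 and a counting interval of 0.0021 to 0.625.

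Developmental regulators held few higher genes. Of 45 homeobox, Sox, Fox and Tbx genes 1 was higher (2.22%) and 11 were lower (24.4%), and the median of -0.29 was the second lowest of the larger families. The higher one was Tbx20, a regulator of heart development (14 in Iso, 6.57 in Veh/Sham, centred log2 ratio 0.69). Six5 (1 in Iso, 5 in Veh/Sham, peak ratio 0.167, counting interval 0.0036 to 1.37) and Sox12 (2 in Iso, 7.50 in Veh/Sham, centred log2 ratio -1.80) were lowest. Notch pathway genes had 1 of 34 higher, Hey1, and 9 lower, with Notch3 lowest (2.57 in Iso, 12.0 in Veh/Sham, centred log2 ratio -2.16, peak ratio 0.214, counting interval 0.0395 to 0.768) in a region 45868 bp from its start. BMP and TGF-beta genes had 3 of 34 higher and 10 lower (29.4%). Acvr1, a BMP receptor, read 3.22 in Iso and 11 in Veh/Sham (-1.81), and Bmpr2, a type II receptor that pairs with it, 13.1 in Iso and 5.25 in Veh/Sham (0.88). Hypoxia genes had 1 of 21 higher, Tceb1, which read 48.4 in Iso and 25.4 in Veh/Sham (0.60); it encodes elongin C, a partner of Vhl, whose region was the family's lowest. Apoptosis genes had a median of -0.30, or -0.03 over all their regions, with 6 of 41 higher, among them Casp8 and Fas, and 8 lower, with Bcl2 lowest (5.88 in Iso, 14.6 in Veh/Sham, centred log2 ratio -1.48).

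Genes of transcription and chromatin had family medians of -0.02 for the polymerase list and -0.09 for the chromatin list. RNA polymerase, Mediator and Integrator genes had 15 of 118 higher (12.7%) and 9 lower (7.63%), the highest being Med19 (10.9 in Iso, 2.71 in Veh/Sham, centred log2 ratio 1.38). Chromatin modifiers had 15 higher (12.2%) and 29 lower (23.6%), with Hdac3 highest (8.10 in Iso, 1.29 in Veh/Sham, peak ratio 4, counting interval 1.08 to 22.1) and Phf15 lowest (1.78 in Iso, 8 in Veh/Sham, centred log2 ratio -1.99). Histone genes had 16 of 47 higher (34.0%) and 1 lower, against 11.8% and 16.7% of all genes. Their 47 genes rest on 25 distinct regions, since clustered histone genes share them, and by region 7 were higher and 1 lower with a median of -0.02. One region alone carried 6 genes (Hist1h2bg, Hist1h2ad, Hist1h2ae, Hist1h3d, Hist1h3e and Hist1h2bf), with 11.1 in Iso and 3.71 in Veh/Sham (1.07). H1f0 read 12.6 in Iso and 3.86 in Veh/Sham (1.18). Splicing factors had 18 of 136 higher and 23 lower, with Rbfox1 highest (15.3 in Iso, 2.56 in Veh/Sham, peak ratio 6.33, counting interval 1.86 to 33.4) and Celf1, a regulator of heart splicing, lowest (1 in Iso, 7.43 in Veh/Sham, peak ratio 0.111, counting interval 0.0025 to 0.802). Zinc finger genes held the highest ratio of any family member, Zfp114 (chr7:24174985-24175244), with 21.1 in Iso, 7.38 in TAC and 1.80 in Veh/Sham (2.68); its peak depths of 27 in Iso and 2 in Veh/Sham gave a ratio of 13.5 with a counting interval of 3.39 to 117.

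The remaining families lay near the background, with single members far from it. Endothelial genes had 2 of 38 higher, Vwf, the clotting factor carrier (12.3 in Iso, 4.94 in Veh/Sham, centred log2 ratio 0.86), and Lyl1, and 5 lower, with Plvap lowest (2.43 in Iso, 4.50 in Veh/Sham, centred log2 ratio -0.98). Matrix genes had 11 of 82 higher and 16 lower, with Col8a2 lowest (2.88 in Iso, 11.4 in Veh/Sham, centred log2 ratio -1.98) and Col24a1 highest (13.9 in Iso, 4.22 in Veh/Sham, centred log2 ratio 1.21). Clock genes had 1 of 21 higher, Clock (6.08 in Iso, 2.77 in Veh/Sham, centred log2 ratio 0.61), and 2 lower, Fbxl21 and Csnk1e. Krueppel-like factors had 1 of 12 higher, Klf3 (9.29 in Iso, 3.43 in Veh/Sham, centred log2 ratio 0.92), and 3 lower, Klf16, Klf7 and Klf10.

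Cell cycle inhibitors had 2 of 23 higher and 3 lower, with Tob1 lowest (2.38 in Iso, 8.63 in Veh/Sham, centred log2 ratio -1.81). Cyclins, their kinases and E2F genes had 9 of 63 higher and 11 lower, from Cdc23 (12.5 in Iso, 3.45 in Veh/Sham, centred log2 ratio 1.30) to Ccnj (1.67 in Iso, 6.71 in Veh/Sham, centred log2 ratio -1.83). Translation factors and tRNA synthetases had 9 of 86 higher and 13 lower, with Eif3l highest (16.1 in Iso, 4.38 in Veh/Sham, centred log2 ratio 1.37) and Eif2ak3, the stress kinase PERK, lowest (3.44 in Iso, 9.44 in Veh/Sham, centred log2 ratio -1.53). F-box and cullin ligases had 11 of 96 higher and 18 lower, and their lower members included Fbxw7, which marks Myc and Notch for degradation (1.83 in Iso, 5.33 in Veh/Sham, centred log2 ratio -1.46). Rab and sorting genes had 10 of 104 higher and 16 lower, with Rab6b highest (10.3 in Iso, 1.6 in Veh/Sham, peak ratio 7, counting interval 1.61 to 63.5). Solute carriers had 17 of 162 higher and 26 lower, with Slc25a5, an ADP and ATP carrier, lowest (2.44 in Iso, 7.78 in Veh/Sham, centred log2 ratio -1.65). Phosphatase subunits had 8 of 66 higher and 10 lower, with Ppm1k, which activates branched-chain amino acid breakdown, highest (24.9 in Iso, 6.31 in Veh/Sham, centred log2 ratio 1.53).

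MicroRNA and small nucleolar RNA genes share regions. Of 172 microRNA genes, on 136 distinct regions, 12 were higher and 27 lower, and by distinct region 11 were higher and 20 lower. The region of the Mir17 cluster, shared by Mir17, Mir18 and Mir19b-1, lay upstream of their starts and read 2.38 in Iso, 9.11 in TAC and 11.9 in Veh/Sham (-2.23). Mir126, an endothelial microRNA, read 9 in Iso and 2 in Veh/Sham (1.44), and the region of Mir130b and Mir301b 12.2 in Iso and 2.62 in Veh/Sham (1.57). Small nucleolar RNA genes had 6 of 100 higher and 10 lower. Where the peak held few fragments in a library the ratio is loosely fixed: the exact 95% counting intervals of the peak ratio were 0.0531 to 1.17 for Tob1 and for Slc25a5, 0.029 to 1.5 for Fbxw7, 0.0489 to 1.03 for Phf15, 0.969 to 20.5 for Mir126, 0.154 to 1.44 for Crebbp and for Adcy9, and 0.196 to 1.34 for Otud3, all of which include 1, as does that of Ccnj. Of the 267 genes that the rule names in families, 182 had an interval that includes 1. Those of Sox12, 0.0196 to 0.833, and of the Mir17 region, 0.0371 to 0.707, lay below it. All these intervals were set against 1, not against the 1.27-fold ratio of summed peak depths. The intervals of Tob1, Slc25a5, Phf15 and Ccnj lay below 1.27, while those of Prkar2a and Hdac3 included it.

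Regions of 1 gene could differ from each other. Of 5417 genes with 2 or more regions, 709 (13.1%) held at least one higher and one lower region. Of all regions 17.8% were higher and 16.1% lower, and the share that unrelated regions would give was not computed. The 6 Stk10 regions ranged from -0.96 to 2.30 with a median of -0.46, so the high region named above stood apart within its gene. Among genes with many regions, Bcor, a BCL6 corepressor, had 9 of 18 regions lower and 1 higher (median -0.56), and Zfp36l2, an RNA decay factor, 4 of 7 lower and none higher (median -0.78). The 6 Igf1r regions were all below 0, from -0.96 to -0.17. Centred ratios of neighbouring regions up to 2000 bp apart had a Pearson's r of 0.10 over 3704 pairs, and those 2000 to 20000 bp apart 0.02 over 3572 pairs, as a description of pairs that share the 2 libraries. Chromosome medians lay between -0.08 on X and 0.09 on chromosome 14.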

How the data were processed

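FoxO1 ChIP-seq was compared between the Iso and Veh/Sham libraries, with TAC as the other library; 3 hearts were pooled for each, per the labels. The submitters' processing notes name BWA, SICER and mm10 with neither versions nor roles. A spike-in of Drosophila chromatin is described in the labels, but the scaling of libraries is not given. For each merged region the authors deposited the mean signal (coverage), the peak signal (highest depth) and whether an interval was called. The table's 6 further columns, of 2 libraries that match no sample, were not used. The Input library was not analysed here. Some of the genes that the naming rule picks are not reported here.

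The log2 ratio of mean signals used a pseudocount of 1, which understates ratios of low regions, and was centred on its median. Higher and lower mean 1.5-fold, with no test. Counting intervals are exact 95% Clopper-Pearson intervals of peak depths: counting error is all they cover, since fragments that lack molecular identifiers are not independent. A gene's value is its assigned region nearest the start site, and 1 region can serve several genes. Depth limits weak regions, with a median peak depth of 16 in Iso and 12 in Veh/Sham. Deposited distances lay within 10 bp of the RefSeq start in 76.8% of 8284 genes; 90.8% of 11718 symbols matched RefSeq symbols of GRCm38.p6.

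Named regions were the 12 highest and 12 lowest ratios at or above the median TAC signal, the 8 highest and 8 lowest called in both libraries, the 8 highest Iso signals, up to 3 highest and lowest members per family, and set FoxO, adrenergic and hypertrophy genes. Fbxw7 as an F-box gene, the 6-gene histone region and the genes with many regions were chosen after their values were seen. Members and lists were chosen with earlier results of these data known. The functions were tested on simulated data. Values were computed in Python 3.11.15 with pandas 2.3.3, numpy 2.4.6 and scipy 1.17.1, and drawn with matplotlib 3.10.9.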

Additional observations from a re-analysis of the deposited data

How the results depend on the processing

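No paired analysis was possible because each condition has 1 library. The median log2 ratio of 0.30 was 0.32 with peak depths, 0.22 with a pseudocount of 5, 0.33 with a pseudocount of 0.1, 0.22 with regions called in either library and 0.34 with those called in both. The counts of 2876 higher and 2596 lower regions became 1671 and 1446 with a pseudocount of 5, 1892 and 1605 without the 25% of regions of lowest TAC signal, 1684 and 1399 with regions called in either library, 227 and 178 with those called in both, 5129 and 1289 without centring, and 1167 and 986 with a 2-fold rule. Each subset was centred on its own median; with the median of all regions, those called in both had 285 higher and 140 lower. Island regions had a lower median than the others in the 7 of 7 alternatives that can change it, with gaps of 0.25 to 0.43. Without centring, medians below 0 turned above it: 0.17, 0.14, 0.14 and 0.13 in shared, broad, narrow and non-promoter island classes, 0.14 over island regions, 0.19 and 0.26 in signal deciles 1 and 10, 0.16 for Krueppel-like factors, 0.13 for F-box and cullin genes, 0.14 for deubiquitinases, 0.19 for splicing factors, 0.0128 for developmental regulators and 0.16 for microRNA genes. Narrow island promoters turned to 0.11 with regions called in both libraries, where deciles 1 and 9 turned to 0.22 and -0.0118. Decile 10 turned to 0.0219 with regions called in either library and to 0.0008 with deciles of the mean of Iso and Veh/Sham, and decile 9 to -0.021 with centring on summed signal. The cause was not tested. Of 322 values of named regions under alternatives, 315 stayed within their counting interval and 7 did not; of 611 family medians, 566 stayed within their interval; of 108 class medians 47 stayed, 55 moved beyond it and 6 changed sign, and of 98 decile medians 58 stayed, 33 moved and 7 changed sign. Counting each distinct region once in a family was added after the data were seen, as was the contrast of island with other regions.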
